A study of Arabidopsis thaliana with 18 samples.

Results

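The subject is the organ difference of the response to mannitol in Arabidopsis thaliana, that is, how differently roots and leaves of the same wild type changed their transcript levels under the same osmotic stress. It was computed for each probe set as the response of roots (osmotic minus mock) minus the response of leaves (osmotic minus mock), so that a positive value means a higher response in roots and a negative value a higher response in leaves. It rests on 12 of the 18 Affymetrix ATH1 arrays of the study, 3 for each of 4 groups, and covered 22746 probe sets. The groups were osmotic roots, mock roots, osmotic leaves and mock leaves, all from the accession Columbia-0 with no transgene or mutation named. Plants grew on rock wool in hydroponic MGRL medium under 12 h of light and 12 h of darkness. Osmotic plants had 0.3 M mannitol in that medium for 3 h in the light, and mock plants did not. All 12 arrays carry a label of day 10, whereas the treatment description speaks of plants of 30 days, so the age is uncertain. The labels call the 3 arrays of a group biological replicates, and no source used here states at what hour mock plants were sampled. The other 6 arrays of the study carry the day 11 label and entered the model for the spread only.

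Mannitol outside the root lowers the water potential of the medium, so that cells lose water and turgor. Plants answer with abscisic acid, a hormone that closes stomata and switches on protective genes, with osmolytes such as proline and soluble sugars, and with changes in wall extension. Roots meet the mannitol directly, whereas leaves meet the stress through the water supply and through signals from the root. Transcript levels in whole organs cannot tell fewer cells of a type from less RNA per cell.

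Values are log2 expression values as deposited, and each difference below is on the log2 scale. Arrays of a group correlated at 0.987 to 0.995 across probe sets, and the median SD within a group was 0.124 to 0.174. The organ labels held: the 3 of 14 leaf markers with a probe set of their own ran from 11.7 to 13.5 in leaf arrays and from 3.45 to 6.92 in root arrays, and the 4 of 14 root markers from 7.53 to 12.6 in root arrays and from 3.46 to 8.23 in leaf arrays. A level below 4.50, the highest lower quartile of the 12 arrays, was treated as near background. A probe set was called near background in an organ where both group means of that organ were below it. A change was called at an adjusted p under 0.05 in limma's test across all probe sets, with Benjamini-Hochberg adjustment.

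Roots and leaves responded differently at 3513 probe sets, 15.4% of those tested. The response was higher in roots at 1767 (7.77%) and lower in roots at 1746 (7.68%), an even split. The size of the organ difference was at least 1 at 1666 of the 3513 and at least 2 at 322. Whatever the other organ did, 5523 responses were called in roots (24.3%), of which 2411 were rises. In leaves 4694 were called (20.6%), of which 1960 were rises. With each array centred on its own median, rises made up 57.7% of the root calls in place of 43.7%, and 54.5% of the leaf calls in place of 41.8%, while the share of positive organ differences was 51.9% in place of 50.3%. Across all probe sets the root response and the leaf response correlated at a Pearson r of 0.395 and a Spearman rho of 0.324, a description over probe sets that share the arrays of their organ. Without osmotic leaf array 2 the leaf calls numbered 3048.

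**Figure D1:**
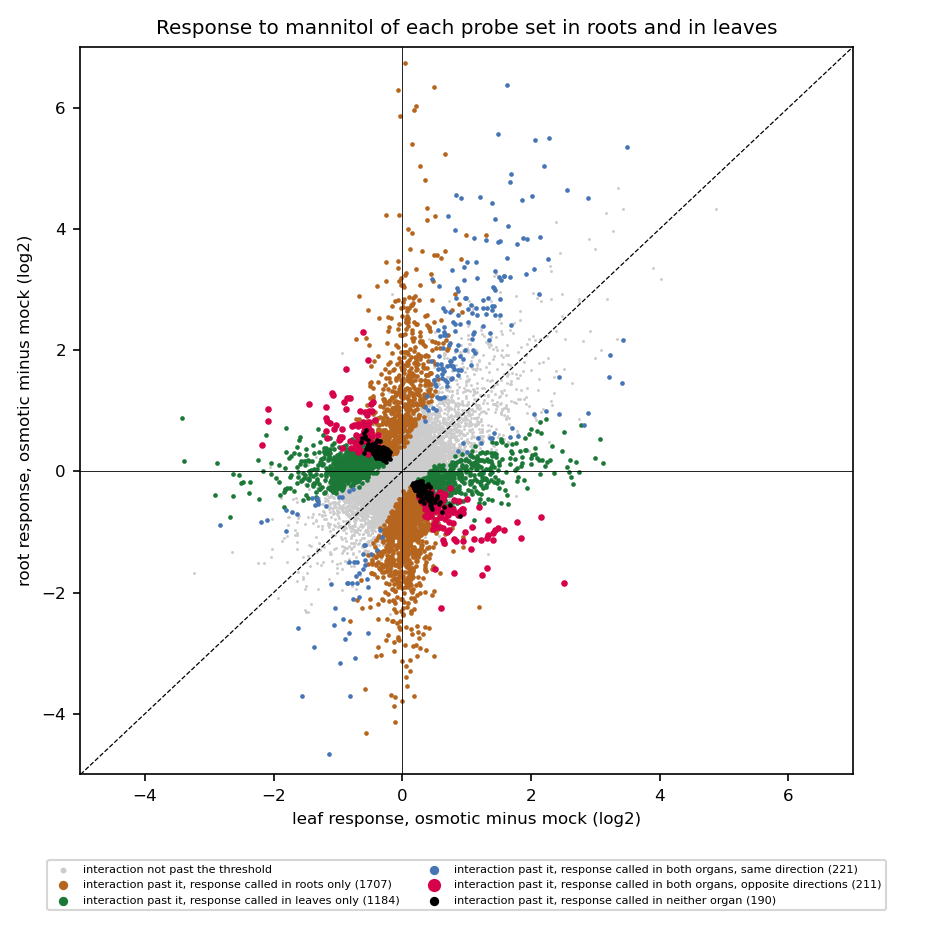
Response of each probe set to mannitol, osmotic minus mock (log2), in leaves on the horizontal axis and in roots on the vertical axis; the dashed line marks equal responses. Of the 3513 coloured or black probe sets with a called organ difference, 1707 had a called response in roots only, 1184 in leaves only, 221 in both organs in the same direction, 211 in both in opposite directions, and 190 in neither.

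With the values as deposited, the commonest kind of organ difference was a fall in roots without a called leaf response, 1053 probe sets. A fall in leaves without a called root response followed, at 765. Rises called in roots only numbered 654 and rises called in leaves only 419. With other ways of scaling, filtering, weighting or fitting, falls in roots only ran from 830 to 1450 and falls in leaves only from 656 to 957. Rises in roots only then ran from 533 to 893 and rises in leaves only from 373 to 506. The ranges of falls and rises overlap in roots and not in leaves. With each array centred on its own median, all root calls held 3227 rises and 2365 falls, so the order of these kinds may depend on the scaling. Both organs rose at 146 probe sets with the larger rise in roots and at 21 with the larger rise in leaves. Both fell at 37 with the larger fall in roots and at 17 with the larger fall in leaves. Opposite responses were called at 211 probe sets, 96 with a rise in roots and a fall in leaves and 115 with a fall in roots and a rise in leaves. Several of these counts rest on single arrays. Without mock leaf array 2, rises in leaves only numbered 257 and falls in leaves only 483. Without osmotic leaf array 2, rises in leaves only numbered 275. The 115 became 71, 74, 75 and 72 without osmotic leaf array 2, osmotic leaf array 3, mock leaf array 2 and mock leaf array 3. Without mock leaf array 3 the larger rises in roots numbered 86 and the larger falls in roots 23. Without osmotic leaf array 1 the larger rises in leaves numbered 54. The 17 larger falls in leaves moved most, to 6, 7, 9 or 10 without any array but osmotic leaf 1, osmotic leaf 3 and mock leaf 1, and to 42 without osmotic leaf array 1.

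A low level in 1 organ accompanied part of these differences. Of the 3513 probe sets, 573 were near background in leaves and 292 in roots. Over all 22746 probe sets, 5921 were near background in leaves and 5599 in roots, a larger share in each organ. Of the 1053 falls in roots only, 345 were near background in leaves, and of the 765 falls in leaves only, 134 were near background in roots. As a further measure, the fall of the other organ was added to the mock level. The result lay below background at 546 of the 1053 in leaves and at 219 of the 765 in roots. The background level is a quartile and not a detection limit, and values ran down to 2.38. Whether such a fall would have shown in part or in full was not tested. Of the rises, 188 of 654 in roots only were near background in leaves and 65 of 419 in leaves only were near background in roots. Opposite responses need a called change in both organs, which by itself makes both means of an organ below background unlikely. They were near background in roots at 4 of 96 and in leaves at 1 of 96, and in each organ at 1 of 115. A fall of the other organ's size would have ended below background in roots at 19 of the 96. In leaves this held at 11 of the 115. In both cases the called change there was a rise. With 6.61, the median of all values, as the background level, 1251 of the 3513 were low in leaves and 979 in roots.

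**Figure D2:**
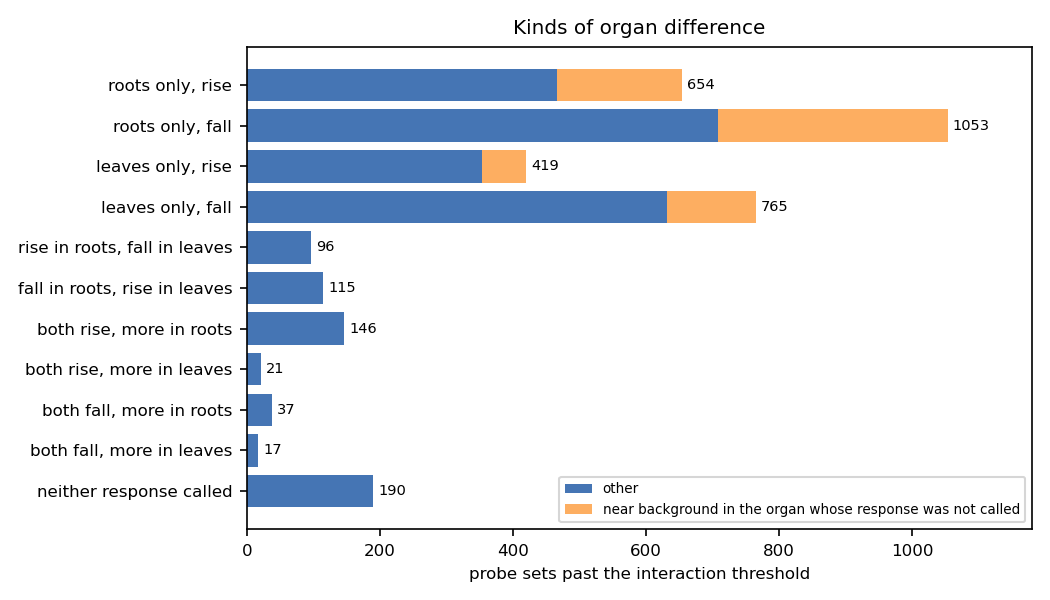
Number of probe sets in each kind of organ difference, with the part near background in the organ whose response was not called in orange. Falls called in roots only (1053, of which 345 near background in leaves) are the largest kind. No orange part was drawn for the other kinds, although 19 of the 190 with neither response called were near background in roots and 17 in leaves.

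Among the 3513, the root and leaf means lay farther apart in osmotic than in mock plants at 1561 and closer at 1952, and at 854 the organ with the higher level changed. Over all 22746 probe sets these counts were 10698, 12048 and 4361. The median distance between the organs was 1.07 in osmotic and 1.12 in mock plants for the 3513, and 0.431 and 0.432 over all probe sets.

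Genes are named from probe sets that the platform annotation pairs with 1 gene, 13286 genes in all, of which 1894 (14.3%) had a called organ difference, 936 higher in roots (7.05%) and 958 lower in roots (7.21%). Root responses were called for 22% of these genes and leaf responses for 18.4%. The genes described next had a brighter group mean above the overall median level of 6.61 in each organ and the largest organ differences of their kind. Genes given as a locus have no symbol of their own in the annotation used here. A synonym listed there follows in brackets, and for all but AT1G73600 and AT4G33980 no function is given beyond the gene list that holds them.

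SWEET2 had the largest organ difference among such genes with a rise in roots and a fall in leaves. SWEET2 is a sugar transporter of the vacuolar membrane. Its level was 8.53, 9.09 and 8.62 in osmotic roots, 7.85, 7.96 and 7.95 in mock roots, 5.60, 5.43 and 5.35 in osmotic leaves, and 7.51, 7.73 and 7.40 in mock leaves. Osmotic roots stood above mock roots and osmotic leaves below mock leaves without overlap in either organ. The root response was 0.83 ± 0.18 (SE; limma adjusted p = 0.0021), the leaf response -2.08 ± 0.18 (SE; limma adjusted p = 5.4e-07), and the organ difference 2.91 ± 0.25 (SE; limma adjusted p = 5.6e-07). Roots exceeded leaves by 3.29 in osmotic plants and by 0.38 in mock plants. MSRB6, a methionine sulfoxide reductase that repairs oxidised methionine, had levels of 6.65, 7.27 and 6.36 in osmotic roots, 5.68, 5.48 and 5.26 in mock roots, 9.74, 9.16 and 10.27 in osmotic leaves, and 10.73, 10.93 and 10.78 in mock leaves. Again the osmotic arrays were the higher ones in roots and the lower ones in leaves. The organ difference was 2.38 ± 0.36 (SE; limma adjusted p = 0.00018), from a root response of 1.29 ± 0.25 (SE; limma adjusted p = 0.00094) and a leaf response of -1.09 ± 0.25 (SE; limma adjusted p = 0.0048). A fall of the leaf size would have taken its mock roots slightly below background, whereas the change seen in roots was a rise. Both genes kept their call for the organ difference and in each organ without any 1 of the 12 arrays.

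AT3G48460 and AT2G44940 turned the same way but with a less secure fall in leaves. The level of AT3G48460 was 6.91, 7.06 and 6.73 in osmotic roots, 4.98, 5.04 and 5.15 in mock roots, 8.19, 7.91 and 7.79 in osmotic leaves, and 8.48, 8.53 and 8.48 in mock leaves. No array of osmotic plants overlapped those of mock plants in either organ, and roots carried most of an organ difference of 2.38 ± 0.25 (SE; limma adjusted p = 3.9e-06). Its leaf response of -0.53 lost its call without osmotic leaf array 2 or 3 or any mock leaf array (adjusted p = 0.07 to 0.13 in limma). For AT2G44940 the organ difference was 2.34 ± 0.46 (SE; limma adjusted p = 0.0019), with 1.26 in roots and -1.08 in leaves, where the call ended without osmotic leaf array 2 or 3 or mock leaf array 1 or 2 (adjusted p = 0.059 to 0.12 in limma).

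Other genes with a rise in roots and a fall in leaves came from the gene lists. UGT78D1, which attaches rhamnose to flavonols, read 6.46, 6.24 and 6.03 in osmotic roots, 3.80, 4.02 and 4.02 in mock roots, 7.93, 8.22 and 7.97 in osmotic leaves, and 8.70, 8.87 and 8.40 in mock leaves. Mock roots were below the background level and osmotic roots well above it, while osmotic leaves stood slightly below mock leaves. The organ difference was 2.91 ± 0.28 (SE; limma adjusted p = 2.2e-06), and its leaf response of -0.62 lost its call without osmotic leaf array 1 or 3 or mock leaf array 1 or 2 (adjusted p = 0.083 to 0.14 in limma). XTH19, an enzyme that cuts and rejoins xyloglucan in the wall, had levels of 10.53, 10.25 and 10.94 in osmotic roots, 9.35, 9.22 and 9.53 in mock roots, 4.95, 4.15 and 4.89 in osmotic leaves, and 5.15, 5.75 and 5.50 in mock leaves. Root arrays were far above leaf arrays in both treatments, and stress widened the distance. This gave an organ difference of 2.01 ± 0.35 (SE; limma adjusted p = 0.00071), and its leaf response of -0.81 lost its call without osmotic leaf array 2 or mock leaf array 2 or 3 (adjusted p = 0.076 to 0.17 in limma). SWEET1, a glucose transporter, had a root response of 0.75, a leaf response of -0.69 and an organ difference of 1.44 ± 0.29 (SE; limma adjusted p = 0.0022). Its root call ended without osmotic root array 2 or 3 or mock root array 2 (adjusted p = 0.05 to 0.065) and its leaf call without osmotic leaf array 3 or mock leaf array 1 or 2 (adjusted p = 0.061 to 0.12), both in limma.

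In the opposite direction, AT1G49000 fell in roots and rose in leaves. The levels were 7.90, 8.08 and 8.35 in osmotic roots, 9.19, 8.69 and 9.73 in mock roots, 7.04, 7.58 and 7.85 in osmotic leaves, and 5.89, 5.28 and 5.78 in mock leaves. Osmotic roots lay below mock roots and osmotic leaves above mock leaves, with no overlap. The root response was -1.10 ± 0.24 (SE; limma adjusted p = 0.0026), the leaf response 1.84 ± 0.24 (SE; limma adjusted p = 4.5e-05) and the organ difference -2.94 ± 0.34 (SE; limma adjusted p = 1.6e-05). Roots exceeded leaves by 0.62 in osmotic plants and by 3.55 in mock plants. XERICO, a RING protein that raises abscisic acid levels, moved the same way with levels of 9.46, 9.31 and 9.38 in osmotic roots, 10.06, 10.28 and 9.70 in mock roots, 9.46, 9.36 and 9.42 in osmotic leaves, and 8.71, 8.40 and 8.35 in mock leaves. Stress left roots and leaves at nearly the same level, with the mock root arrays all above the mock leaf arrays. The resulting organ difference was -1.55 ± 0.20 (SE; limma adjusted p = 4.1e-05), made of -0.63 ± 0.14 (SE; limma adjusted p = 0.0028) in roots and 0.92 ± 0.14 (SE; limma adjusted p = 0.00018) in leaves. For these 2 genes too the calls in both organs held without any 1 array.

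For AT1G14260, AT1G12030 and AT1G10340 the root call held without any 1 array and the leaf call did not. AT1G14260 read 6.76, 7.23 and 7.34 in osmotic roots, 9.48, 9.31 and 9.31 in mock roots, 6.86, 6.99 and 6.84 in osmotic leaves, and 6.62, 5.78 and 6.47 in mock leaves. Roots fell to about the leaf level, and leaves rose slightly. The organ difference was -2.86 ± 0.26 (SE; limma adjusted p = 7.7e-07), and its leaf rise of 0.61 lost its call without osmotic leaf array 2 or mock leaf array 2 (adjusted p = 0.084 and 0.14 in limma). AT1G12030 had an organ difference of -2.91 ± 0.59 (SE; limma adjusted p = 0.0025), with -1.60 in roots and 1.31 in leaves. In leaves its arrays overlapped, since osmotic leaf array 1 stood at 5.99 beside mock leaf values of 5.99, 5.45 and 6.60. That leaf call ended without osmotic leaf array 2 or 3 or mock leaf array 1 or 2 (adjusted p = 0.069 to 0.21 in limma). The organ difference of AT1G10340 was -2.50 ± 0.29 (SE; limma adjusted p = 1.5e-05), and its leaf rise of 0.81, with overlapping leaf arrays, lost its call without mock leaf array 2 (adjusted p = 0.061 in limma). ALDH6B2, an aldehyde dehydrogenase of the breakdown of branched-chain amino acids, showed a smaller organ difference of -0.96 ± 0.15 (SE; limma adjusted p = 0.00022), and its leaf rise of 0.35 lost its call without osmotic leaf array 3 or mock leaf array 1 (adjusted p = 0.087 and 0.11 in limma).

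**Figure D3:**
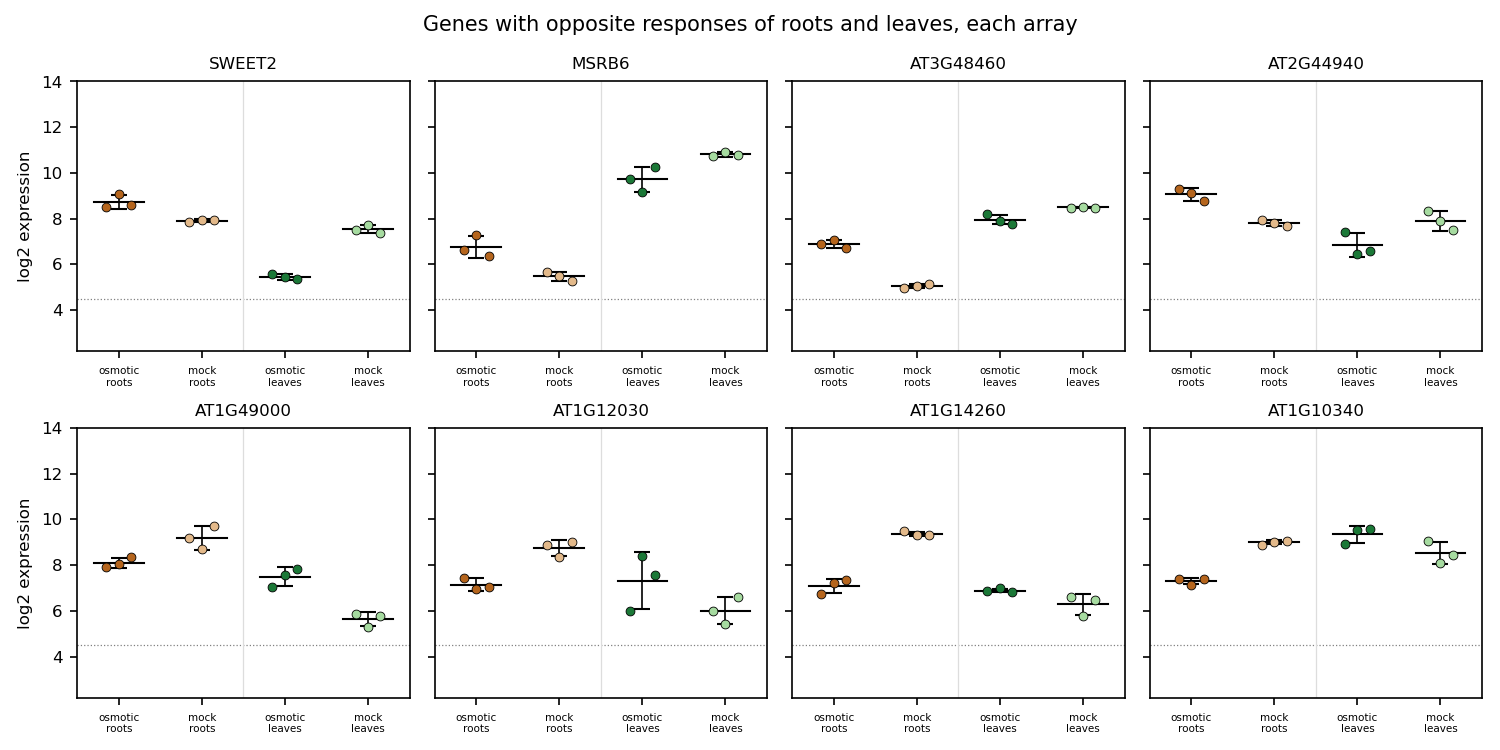
Log2 expression on each array for 8 genes with called responses in opposite directions, groups from left to right osmotic roots, mock roots, osmotic leaves and mock leaves; horizontal bars are means, error bars SD (n = 3) and the dotted line the background level of 4.50. In the upper row roots rise and leaves fall, for SWEET2 with root and leaf means of 8.75 and 5.46 in osmotic plants against 7.92 and 7.54 in mock plants, and in the lower row roots fall and leaves rise.

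Rises that were larger in roots or called only there were led by 4 genes without a symbol. AT5G19110 had levels of 11.56, 11.45 and 11.31 in osmotic roots, 7.13, 6.73 and 6.79 in mock roots, 6.14, 6.99 and 6.88 in osmotic leaves, and 5.61, 6.14 and 5.75 in mock leaves. Osmotic roots stood far above all other arrays, while in leaves the lowest osmotic array only just matched the highest mock array. The root response was 4.56 ± 0.21 (SE; limma adjusted p = 3.3e-11), the leaf response 0.84 ± 0.21 (SE; limma adjusted p = 0.0071) and the organ difference 3.72 ± 0.29 (SE; limma adjusted p = 1.7e-07). AT5G16010 read 9.39, 9.43 and 8.65 in osmotic roots, 5.75, 6.05 and 5.59 in mock roots, 10.44, 10.57 and 10.53 in osmotic leaves, and 10.73, 10.55 and 10.45 in mock leaves. Leaves were high in both treatments and their arrays overlapped, while osmotic roots came closer to the leaf level. The organ difference came to 3.43 ± 0.25 (SE; limma adjusted p = 8.0e-08). AT1G68620 had an organ difference of 3.76 ± 0.65 (SE; limma adjusted p = 0.00066) with a root response of 4.14, and AT5G59540 one of 3.21 ± 0.46 (SE; limma adjusted p = 0.00011) with a root response of 3.19. Both had leaf arrays that overlapped between treatments, and both were already above the background in mock leaves, at means of 7.34 and 9.27.

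Falls that were larger in roots were led by AT1G73600, a phosphoethanolamine methyltransferase of phosphocholine synthesis. Its level was 7.23, 5.09 and 5.20 in osmotic roots, 10.50, 10.57 and 10.43 in mock roots, 10.51, 9.70 and 10.45 in osmotic leaves, and 11.36, 11.41 and 11.31 in mock leaves. Among osmotic roots, arrays 2 and 3 lay well below array 1 and all 3 far below mock roots, whereas osmotic leaves stayed much closer to mock leaves, also without overlap. The root response was -4.66 ± 0.36 (SE; limma adjusted p = 2.9e-08), the leaf response -1.14 ± 0.36 (SE; limma adjusted p = 0.032) and the organ difference -3.51 ± 0.51 (SE; limma adjusted p = 0.00014). The leaf call ended without osmotic leaf array 2 or any mock leaf array (adjusted p = 0.066 to 0.16 in limma). AT1G78020 had levels of 6.17, 5.15 and 6.13 in osmotic roots, 8.72, 9.08 and 8.81 in mock roots, 9.43, 8.50 and 9.01 in osmotic leaves, and 9.38, 9.40 and 9.38 in mock leaves. Only the root arrays separated by treatment, since osmotic leaf array 1 lay above all mock leaves. Its organ difference was -2.64 ± 0.33 (SE; limma adjusted p = 3.0e-05), with a root response of -3.05. AT5G62360 had an organ difference of -2.51 ± 0.48 (SE; limma adjusted p = 0.0015) with a root response of -2.89. The organ difference of AT1G47400 was -3.43 ± 0.90 (SE; limma adjusted p = 0.014), with -2.24 in roots, where the call ended without osmotic root array 1 or 3 or mock root array 3 (adjusted p = 0.06 to 0.077 in limma), and 1.18 in leaves, not called.

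Rises that were called in leaves only were led by AT2G41190. Its levels were 7.02, 7.19 and 6.46 in osmotic roots, 6.70, 6.21 and 6.18 in mock roots, 10.50, 11.13 and 10.46 in osmotic leaves, and 8.02, 7.50 and 7.35 in mock leaves. All osmotic leaves stood above all other arrays, and the root arrays of both treatments overlapped. The leaf response was 3.08 ± 0.23 (SE; limma adjusted p = 1.5e-07) and the organ difference -2.55 ± 0.32 (SE; limma adjusted p = 3.7e-05). Its root response of 0.53 was not called, but a call was made without osmotic root array 3 (adjusted p = 0.036 in limma). AT2G43590 had levels of 11.00, 11.54 and 11.75 in osmotic roots, 11.04, 10.48 and 11.78 in mock roots, 10.26, 10.69 and 10.04 in osmotic leaves, and 7.69, 8.09 and 7.78 in mock leaves. Roots were high with and without stress, and osmotic leaves came up towards them. The leaf response was 2.48 ± 0.31 (SE; limma adjusted p = 3.0e-05) and the organ difference -2.15 ± 0.44 (SE; limma adjusted p = 0.0028). AT2G43620, a neighbour with 2 protein-coding genes between them, had an organ difference of -2.02 ± 0.46 (SE; limma adjusted p = 0.006) with a leaf response of 2.78, and its root response of 0.76 was not called, but it was without osmotic root array 1 or mock root array 3 (adjusted p = 0.041 and 0.022 in limma) and with array weights. AT5G18130 had an organ difference of -2.02 ± 0.24 (SE; limma adjusted p = 2.1e-05) and a leaf response of 1.63.

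Among falls that were larger in leaves or called only there, AT1G29660 had the largest organ difference of the genes above the median in both organs. It read 7.33, 5.86 and 6.67 in osmotic roots, 6.59, 6.96 and 7.49 in mock roots, 9.04, 7.47 and 8.45 in osmotic leaves, and 11.21, 11.12 and 11.34 in mock leaves. The osmotic leaves lay far below mock leaves, and the root arrays overlapped at a lower level. A fall of the leaf size would have taken the mean of mock roots below background, though most of that fall lies above it. Its leaf response was -2.90 ± 0.35 (SE; limma adjusted p = 2.0e-05) and its organ difference 2.51 ± 0.50 (SE; limma adjusted p = 0.0021). DRT100, a leucine-rich repeat protein named for tolerance of DNA damage, had levels of 10.33, 9.61 and 10.20 in osmotic roots, 10.38, 10.39 and 10.46 in mock roots, 7.80, 6.22 and 7.23 in osmotic leaves, and 9.51, 9.33 and 9.53 in mock leaves. The leaf arrays separated widely, and osmotic roots lay slightly below mock roots without a called response. The resulting organ difference was 2.01 ± 0.42 (SE; limma adjusted p = 0.0028) from a leaf response of -2.37. BZIP61, a basic leucine zipper factor, read 7.99, 7.04 and 7.68 in osmotic roots, 8.31, 8.17 and 8.49 in mock roots, 4.06, 4.15 and 5.77 in osmotic leaves, and 7.14, 7.53 and 7.33 in mock leaves. In leaves 2 of 3 osmotic arrays fell below the background level. The organ difference came to 1.92 ± 0.53 (SE; limma adjusted p = 0.018) from a leaf response of -2.67. AT5G44020 fell in both organs, with -0.88 in roots and -2.83 in leaves and an organ difference of 1.95 ± 0.33 (SE; limma adjusted p = 0.00065), and the root call ended without osmotic root array 2 (adjusted p = 0.058 in limma).

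**Figure D4:**
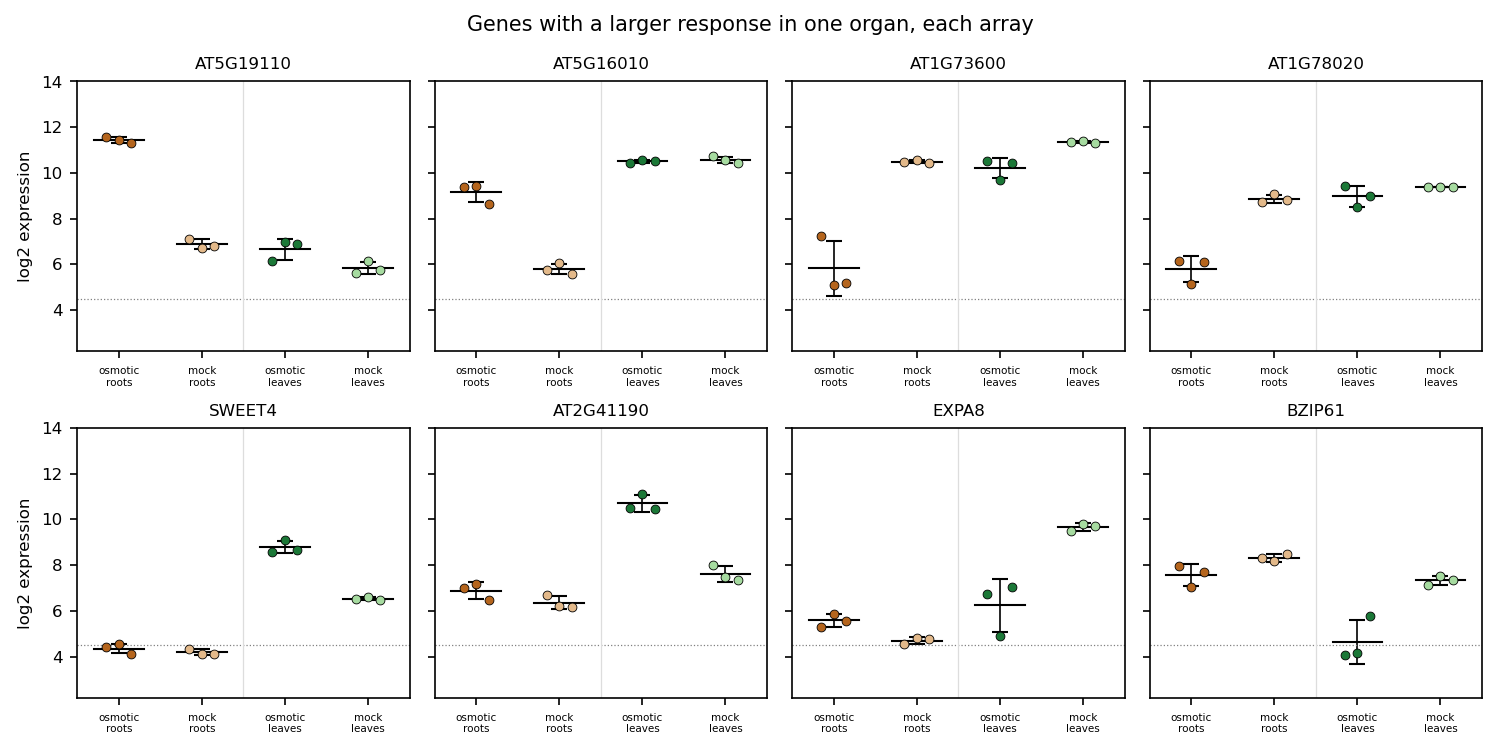
Log2 expression on each array for 8 genes whose response was larger in 1 organ, groups from left to right osmotic roots, mock roots, osmotic leaves and mock leaves; horizontal bars are means, error bars SD (n = 3) and the dotted line the background level of 4.50. The upper row holds larger responses of roots, such as AT5G19110 with a mean of 11.4 in osmotic and 6.88 in mock roots, and the lower row larger responses of leaves, such as SWEET4 with a mean of 8.79 in osmotic and 6.53 in mock leaves.

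The largest organ differences of all belonged to genes near background in leaves. AT5G28520 and BGLU24, a beta-glucosidase, are neighbours with 0 protein-coding genes between them. The levels of AT5G28520 were 10.95, 11.00 and 10.60 in osmotic roots, 4.14, 4.22 and 3.97 in mock roots, 4.45, 4.35 and 4.12 in osmotic leaves, and 4.12, 4.39 and 4.30 in mock leaves. Its 9 arrays other than osmotic roots lay below the background level. The organ difference was 6.70 ± 0.36 (SE; limma adjusted p = 1.3e-09). BGLU24 read 9.70, 9.36 and 9.28 in osmotic roots, 3.37, 3.05 and 3.04 in mock roots, 2.92, 2.77 and 2.74 in osmotic leaves, and 2.74, 2.99 and 2.87 in mock leaves and had an organ difference of 6.35 ± 0.34 (SE; limma adjusted p = 1.3e-09). It likewise stood above background in osmotic roots alone. scpl30, a serine carboxypeptidase-like protein, had an organ difference of 5.84 ± 0.34 (SE; limma adjusted p = 6.4e-09), with means of 10.3 in osmotic roots, 3.94 in mock roots, 4.14 in osmotic leaves and 3.64 in mock leaves. AT1G32970 had one of 5.89 ± 0.27 (SE; limma adjusted p = 2.1e-10), with means of 9.39, 3.53, 3.36 and 3.40 in the same order.

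Among genes near background in an organ, the 4 most negative organ differences were falls in roots of genes whose leaf level was near background, so a fall in leaves could not have been shown. AT1G07690 read 5.32, 4.93 and 5.64 in osmotic roots, 9.49, 9.26 and 9.55 in mock roots, 3.92, 4.09 and 3.96 in osmotic leaves, and 4.26, 4.28 and 3.80 in mock leaves. Osmotic roots stayed above the leaf arrays. This gave an organ difference of -4.02 ± 0.27 (SE; limma adjusted p = 4.2e-08). For AT5G37450, AT4G10540 and AT2G38600 the organ differences were -3.78, -3.61 and -3.44, with leaf means between 3.34 and 4.41. These values measure the root fall.

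The gene lists below hold the members with a probe set of their own, and over all 13286 genes the median organ difference was 0.00. A higher response in roots was called for 7.05% of these genes and a lower response for 7.21%, the background for the counts of each list. Dehydrins, late embryogenesis abundant (LEA) proteins and cold-regulated proteins shield membranes and enzymes in drying cells. Of 11 members, 1 had a higher and 3 a lower response in roots, with a median organ difference of -0.29. Rises were called for 6 of 11 in roots, against 9.25% of all genes, and for 9 of 11 in leaves, against 7.55%. No fall was called in either organ in limma, and 0 at an unadjusted p under 0.05. COR15A, a chloroplast protein that protects membranes against drying and freezing, read 4.38, 4.73 and 4.46 in osmotic roots, 4.09, 4.54 and 4.06 in mock roots, 12.63, 12.53 and 12.92 in osmotic leaves, and 10.24, 11.32 and 10.34 in mock leaves. Leaves were high and rose further, and roots stayed around the background level. Its organ difference was -1.77 ± 0.33 (SE; limma adjusted p = 0.0013). Its neighbour COR15B, with 0 protein-coding genes between them, had an organ difference of -1.41 ± 0.29 (SE; limma adjusted p = 0.0031) and was near background in roots. LEA4-5 went the other way with levels of 9.45, 9.41 and 8.99 in osmotic roots, 4.81, 4.93 and 4.58 in mock roots, 8.30, 8.99 and 7.87 in osmotic leaves, and 5.82, 5.33 and 5.37 in mock leaves. It rose in both organs, and mock roots started lower than mock leaves. Its root response was 4.51 ± 0.22 (SE; limma adjusted p = 9.5e-11), its leaf response 2.88 ± 0.22 (SE; limma adjusted p = 1.9e-07) and its organ difference 1.63 ± 0.31 (SE; limma adjusted p = 0.0016). AtLEA4-1 had an organ difference of -0.89 ± 0.18 (SE; limma adjusted p = 0.0028), near background in roots and barely above it in osmotic leaves. The dehydrin LTI30 rose by 2.85 in roots and 2.30 in leaves, and its organ difference of 0.54 was not called.

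Of 16 SWEET sugar transporters, 2 had a higher response in roots (SWEET2 and SWEET1, above) and 1 a lower response, SWEET4, with a list median of -0.08. The lower count was 2 without osmotic leaf array 3. SWEET4 moves sugars across the plasma membrane, and read 4.41, 4.54 and 4.12 in osmotic roots, 4.35, 4.12 and 4.12 in mock roots, 8.60, 9.08 and 8.68 in osmotic leaves, and 6.51, 6.61 and 6.49 in mock leaves. It stayed around the background level in roots and rose in leaves without overlap. The leaf response was 2.26 ± 0.17 (SE; limma adjusted p = 1.4e-07) and the organ difference -2.10 ± 0.24 (SE; limma adjusted p = 1.0e-05). Of the 16 members 7 were near background in both organs. SAG29, also known as SWEET15, had a leaf response of 1.78 and an organ difference of -1.12 that was not called, but was with array weights (adjusted p = 0.013 in limma) and without osmotic leaf array 3 (adjusted p = 0.0026 in limma).

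Expansins and xyloglucan endotransglucosylases loosen and remodel the wall. Of 29 members, 4 (13.8%) had a higher response in roots, against 7.05% of all genes, and 6 (20.7%) a lower response, against 7.21%, with a median of 0.10. EXPA8 had the largest organ difference of the list and read 5.30, 5.88 and 5.58 in osmotic roots, 4.54, 4.81 and 4.76 in mock roots, 6.75, 4.93 and 7.07 in osmotic leaves, and 9.48, 9.82 and 9.71 in mock leaves. Mock leaves stood far above all other arrays, and mock roots lay so close to background that a fall of the leaf size would have ended below it. Its leaf response was -3.42 ± 0.35 (SE; limma adjusted p = 3.6e-06) and its organ difference 4.30 ± 0.50 (SE; limma adjusted p = 1.4e-05). The root response of 0.88 was not called, but it was without osmotic leaf array 2 or 3 (adjusted p = 0.00066 and 0.041 in limma) and with array weights. EXPA4 averaged 8.80 ± 0.34 in osmotic roots, 10.75 ± 0.16 in mock roots, 9.03 ± 0.16 in osmotic leaves and 8.89 ± 0.07 in mock leaves (SD, n = 3 each). Osmotic roots lay below mock roots without overlap, and leaf arrays overlapped. The organ difference came to -2.08 ± 0.27 (SE; limma adjusted p = 4.1e-05). The organ difference of EXPB3 was -1.87 ± 0.42 (SE; limma adjusted p = 0.0056), with -2.76 in roots and -0.89 in leaves. The leaf call of EXPB3 ended without any array but the osmotic root arrays and osmotic leaf array 1 (adjusted p = 0.051 to 0.21 in limma). The other higher members were XTH19 (above), EXLB1 at 0.97 and XTH20 at 1.36, the last 2 named after their values were seen. Another list of 34 genes covers xylan synthesis and wall acetylation and also holds CSL genes that make other wall glycans. Of these 34, 6 (17.6%) had a higher and 4 (11.8%) a lower response in roots, against the same shares of all genes. Without mock leaf array 2 these counts were 3 and 2, without mock root array 3 the higher count was 3, and without osmotic root array 3 or mock root array 1 the lower count was 2. The 4 lower members were TBL36 at -1.60, whose call ended without 7 of the 12 arrays (adjusted p = 0.054 to 0.085 in limma), and AT2G31110, TBL34 and IRX15-L at -1.01, -1.05 and -0.99, named after their values were seen. CSLA03, a glucomannan synthase, had a leaf response of -1.80 with an organ difference of 1.52 ± 0.34 (SE; limma adjusted p = 0.0056), and CSLC04, a glucan synthase of xyloglucan, rose in roots by 0.95 with an organ difference of 1.41 ± 0.30 (SE; limma adjusted p = 0.0031).

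Beta-glucosidases, which release aglycones from stored glucosides, and jacalin lectins formed 1 list. Of 26 members, 8 had a higher response in roots, against 7.05% of all genes, and 1 a lower response, against 7.21%, with a median of 0.24. The lower member was JAL23, at -1.55 with a leaf response of 1.75, named after its value was seen, and the lower count was 2 without osmotic leaf array 1. BGLU40 read 6.48, 7.23 and 6.45 in osmotic roots, 4.57, 4.23 and 3.80 in mock roots, 8.19, 8.03 and 8.30 in osmotic leaves, and 8.39, 8.71 and 8.48 in mock leaves. Leaves were high in both treatments, while the mean of roots passed the background level only under stress. This gave an organ difference of 2.88 ± 0.28 (SE; limma adjusted p = 2.4e-06). For BGLU27 it was 2.59 ± 0.70 (SE; limma adjusted p = 0.017), with a call that ended without mock root array 2 (adjusted p = 0.053 in limma). For BGLU32 it was 2.25 ± 0.34 (SE; limma adjusted p = 0.00017), with all leaf arrays near background. JAL34, a jacalin lectin, rose in both organs, by 0.93 in roots and 1.58 in leaves. Its organ difference of -0.65 was not called, but it was with array weights, with quantile normalisation over all arrays and without osmotic leaf array 1 (adjusted p = 0.036, 0.048 and 0.00068 in limma).

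Glutathione transferases, which couple glutathione to reactive compounds, gave 3 (23.1%) higher responses in roots among 13 members, against 7.05% of all genes, and 2 (15.4%) lower responses, against 7.21%. The neighbours GSTU25 and GSTU26, with 0 protein-coding genes between them, both rose in roots. GSTU26 read 10.18, 10.19 and 9.95 in osmotic roots, 7.86, 8.22 and 7.97 in mock roots, 5.58, 5.88 and 5.98 in osmotic leaves, and 5.76, 5.90 and 6.05 in mock leaves. Only roots separated by treatment. The resulting organ difference was 2.19 ± 0.22 (SE; limma adjusted p = 2.4e-06), and that of GSTU25, near background in leaves, was 2.69 ± 0.49 (SE; limma adjusted p = 0.001). GSTU21 fell in roots, with an organ difference of -1.71 ± 0.24 (SE; limma adjusted p = 9.0e-05) and leaf arrays near background. The other called members were GSTU18, at 1.27, and GSTU28, at -1.16, which was named after its value was seen. Of 6 peroxidases, 2 had a higher and 1 a lower response in roots. AT2G41480 (PRX25) and AT5G66390 (PRX72) rose in roots by 1.49 and 1.34, and PRXR1 had a root response of -0.65, with organ differences of 1.38 ± 0.28 (SE; limma adjusted p = 0.0023), 1.08 ± 0.19 (SE; limma adjusted p = 0.00096) and -0.67 ± 0.15 (SE; limma adjusted p = 0.0041).

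Among 51 UDP-glycosyltransferases, which attach sugars to hormones and secondary metabolites, 6 (11.8%) had a higher response in roots, against 7.05% of all genes, and 8 (15.7%) a lower response, against 7.21%, with a median of -0.06. Besides UGT78D1, UGT87A2 rose in roots by 2.63 with an organ difference of 1.69 ± 0.46 (SE; limma adjusted p = 0.017). UGT76D1 fell in roots, with a response of -2.16 and an organ difference of -2.05 ± 0.32 (SE; limma adjusted p = 0.00024), and UGT85A5, near background in roots, rose in leaves by 1.48 with one of -1.63 ± 0.28 (SE; limma adjusted p = 0.00066). The rise of UGT87A2 in leaves, 0.93, was at the threshold and was called without osmotic root array 1 or 2, mock root array 3, osmotic leaf array 1 or mock leaf array 1 (adjusted p = 0.024 to 0.043 in limma).

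Ubiquitin ligases and conjugating enzymes, which mark proteins for breakdown, gave 0 higher responses in roots among 27 members, against 7.05% of all genes, and 3 (11.1%) lower responses, against 7.21%. By an unadjusted p under 0.05 in limma 1 member was higher in roots, and without osmotic root array 1 the adjusted count was 1. The 3 were XERICO, PUB19 and UBC32. PUB19, a U-box ligase that is induced by drought, read 8.08, 7.89 and 7.65 in osmotic roots, 5.75, 6.07 and 6.03 in mock roots, 9.33, 10.07 and 9.57 in osmotic leaves, and 6.72, 6.48 and 6.11 in mock leaves. It rose in both organs, and osmotic leaves reached the highest values. Its root response was 1.92 ± 0.23 (SE; limma adjusted p = 4.2e-06), its leaf response 3.22 ± 0.23 (SE; limma adjusted p = 9.4e-08) and its organ difference -1.30 ± 0.32 (SE; limma adjusted p = 0.0099). UBC32, a conjugating enzyme of the endoplasmic reticulum, had levels of 8.76, 9.02 and 8.75 in osmotic roots, 8.69, 8.67 and 8.57 in mock roots, 9.39, 9.98 and 9.52 in osmotic leaves, and 8.71, 8.31 and 8.40 in mock leaves. The rise was called in leaves only, although the root arrays also did not overlap. Its organ difference was -0.96 ± 0.19 (SE; limma adjusted p = 0.0024). The U-box ligases PUB23 and PUB24 had no called organ difference (0.18 and 0.66).

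Autophagy genes, which build the vesicles that carry cell contents to the vacuole, gave 0 higher responses in roots among 11 members, against 7.05% of all genes, and 4 (36.4%) lower responses, against 7.21%, with a median of -0.48. By an unadjusted p under 0.05 in limma 0 members were higher in roots. Rises in leaves were called for 10 of 11, against 7.55% of all genes, and in roots for 1 of 11, against 9.25%. The 4 were APG8A, with an organ difference of -0.82 ± 0.21 (SE; limma adjusted p = 0.011), AT5G66930 (ATG101), with -0.87, APG8H, with -0.57, and ATG3, with -0.48. The count was 2 without mock root array 2, osmotic leaf array 2, mock leaf array 2 or mock leaf array 3, and ran up to 6 without another array. The leaf count was 5 without osmotic leaf array 2 and 4 without mock leaf array 2. The root count was 0 without osmotic root array 2 or 3 or mock root array 1 or 2, and 2 without osmotic leaf array 1.

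**Figure D5:**
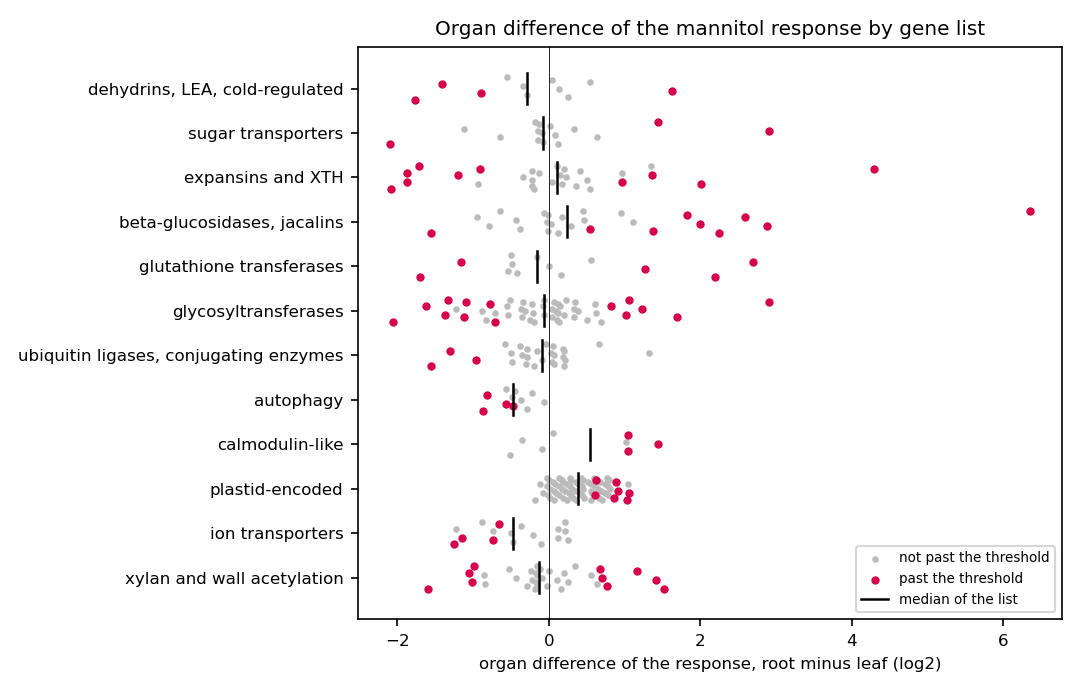
Organ difference of the mannitol response, root response minus leaf response (log2), for each measured member of 12 gene lists; red points are past the adjusted p threshold of 0.05 and black bars are list medians. Ubiquitin enzymes, autophagy genes and ion transporters have red points on the negative side only, and calmodulin-like and plastid-encoded genes on the positive side only.

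Of 7 WRKY factors 1 had a higher and 2 a lower response in roots. WRKY53, a regulator of leaf senescence, rose in leaves by 1.90 with an organ difference of -1.35 ± 0.38 (SE; limma adjusted p = 0.021), a call that ended without osmotic root array 1, mock root array 3, osmotic leaf array 2 or mock leaf array 2 (adjusted p = 0.051 to 0.065 in limma). ZAP1, also WRKY1, had an organ difference of -0.53, whose call ended without 7 of the 12 arrays (adjusted p = 0.05 to 0.099 in limma). Without osmotic root array 1, mock root array 3, osmotic leaf array 2 or mock leaf array 2 the lower count was 0. WRKY20 rose in roots by 0.49 with an organ difference of 0.61 ± 0.15 (SE; limma adjusted p = 0.011). Of 3 factors of the ethylene response and DREB families, 0 were higher and 2 lower in roots, and by an unadjusted p under 0.05 in limma 0 were higher. ORA47, which switches on jasmonate synthesis, rose in leaves by 1.33 with an organ difference of -1.50 ± 0.35 (SE; limma adjusted p = 0.0072), while its root arrays stood around background. The DREB factor tny fell in roots, with a response of -1.52 and an organ difference of -1.20 ± 0.33 (SE; limma adjusted p = 0.019), a call that ended without mock root array 2 or mock leaf array 2 (adjusted p = 0.057 and 0.054 in limma). A fall of the root size would have ended below background for tny in leaves, and the same held for UGT76D1.

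Of 3 clock-linked genes, 2 had a lower response in roots. AT4G33980, a relative of the cold- and light-regulated COR27, read 7.29, 7.42 and 7.33 in osmotic roots, 5.56, 6.10 and 6.02 in mock roots, 7.23, 6.48 and 7.99 in osmotic leaves, and 3.54, 3.90 and 3.99 in mock leaves. It rose in both organs, and mock leaves lay below background. Its root response was 1.45 ± 0.30 (SE; limma adjusted p = 0.0012), its leaf response 3.42 ± 0.30 (SE; limma adjusted p = 5.9e-07) and its organ difference -1.97 ± 0.42 (SE; limma adjusted p = 0.0034). GI, the clock protein GIGANTEA, had an organ difference of -0.66 ± 0.20 (SE; limma adjusted p = 0.03), a call that ended without osmotic root array 1 or 3, mock root array 1 or 2, or mock leaf array 1 or 3 (adjusted p = 0.054 to 0.072 in limma). COR27 rose by 3.17 in roots and 4.02 in leaves, and its organ difference of -0.84 was called only without osmotic leaf array 2 (adjusted p = 0.041 in limma).

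Among hormone genes, the type-A response regulators RR16 and ARR15, which damp cytokinin signalling, fell in leaves. A fall of that size would have ended below background in roots. RR16 had levels of 3.82, 4.30 and 3.93 in osmotic roots, 3.65, 3.45 and 3.73 in mock roots, 5.49, 5.36 and 5.97 in osmotic leaves, and 7.07, 7.93 and 6.74 in mock leaves. Root arrays stayed below background, and leaf arrays separated without overlap. This gave an organ difference of 2.04 ± 0.37 (SE; limma adjusted p = 0.001), and that of ARR15 1.50 ± 0.30 (SE; limma adjusted p = 0.0022) with a leaf response of -1.14. These 2 were the members with a called organ difference among 6 cytokinin genes, of which 4 were near background in both organs. Of 13 auxin genes, 2 had a higher response in roots. IAA30, a repressor of auxin response genes, rose in roots by 0.89 with an organ difference of 0.88 ± 0.19 (SE; limma adjusted p = 0.0034), and GH3.9, of a family that conjugates auxin, fell in leaves, with an organ difference of 0.91 ± 0.18 (SE; limma adjusted p = 0.0022) and was near background in roots.

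Calmodulin-like proteins, which bind calcium, gave 3 higher responses in roots among 8 members, but the count depended on single arrays. CML38 had an organ difference of 1.45 ± 0.47 (SE; limma adjusted p = 0.044), its neighbour AT1G76640 (CML39) one of 1.04 and CML23 one of 1.04. The count was 1 without osmotic root array 2, osmotic leaf array 1 or 2, or mock leaf array 2, and 0 without mock root array 1 or 2 or mock leaf array 3. Ion transporters gave 0 higher responses in roots among 17 members, against 7.05% of all genes, and 4 (23.5%) lower responses, against 7.21%. The median was -0.48, and by an unadjusted p under 0.05 in limma 0 were higher. CHX16, a cation exchanger, fell in roots, with a response of -1.05 and an organ difference of -1.25 ± 0.24 (SE; limma adjusted p = 0.0015), and ZIP6, a metal transporter, likewise, with -1.03 and -1.14 ± 0.26 (SE; limma adjusted p = 0.0053). GLR3.5, a glutamate receptor-like channel, had an organ difference of -0.74. GLR2.9, near background in both organs, had one of -0.66, whose call ended without 5 of the 12 arrays (adjusted p = 0.051 to 0.1 in limma).

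Of 69 plastid-encoded genes, 7 (10.1%) had a higher response in roots, against 7.05% of all genes, and 0 a lower response, against 7.21%. The median organ difference was 0.38, and by an unadjusted p under 0.05 in limma 0 were lower. Falls in leaves were called for 17 of 69, against 10.9% of all genes, and rises in roots for 6, against 9.25%. In roots 19 of the 69 were near background, and 11 were so in both organs. For 5 of the 7, a fall of the leaf size would have ended below background in roots. Among them psbD, of photosystem II, had an organ difference of 1.04 ± 0.28 (SE; limma adjusted p = 0.017), with root means of 4.52 in osmotic and 4.21 in mock plants, around the background level, where a fall of the leaf size could not have been shown. The number 7 became 4 without osmotic root array 1, mock root array 2 or 3 or osmotic leaf array 2, 3 without mock leaf array 2, 2 without osmotic leaf array 1 and 20 without osmotic leaf array 3. The number 17 became 9, 8, 27 and 10 without osmotic leaf arrays 1, 2 and 3 and mock leaf array 1.

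Of 15 nuclear photosynthesis genes, 2 had a higher and 1 a lower response in roots. PSB27, an assembly factor of photosystem II, read 6.71, 6.89 and 6.69 in osmotic roots, 4.98, 5.77 and 5.26 in mock roots, 12.29, 12.04 and 12.46 in osmotic leaves, and 12.40, 12.61 and 12.57 in mock leaves. Leaves were near the top of the scale with overlapping arrays, and osmotic roots stood above mock roots. The resulting organ difference was 1.69 ± 0.22 (SE; limma adjusted p = 5.2e-05). The leaf marker PSAE-1, of photosystem I, moved with it, at means of 5.65 in osmotic and 4.61 in mock roots, whereas the leaf marker RCA, the activase of Rubisco, went the other way, at 5.37 in osmotic and 6.40 in mock roots. The third leaf marker, PRK, was near background in roots, at 3.64 and 3.95. Their organ differences were 1.19, -0.77 and 0.17. The calls of PSAE-1 and RCA ended without single arrays, 6 of 12 for PSAE-1 (osmotic root 2, mock root 1 and 3, osmotic leaf 3, mock leaf 2 and 3; adjusted p = 0.053 to 0.08) and all but osmotic root 2 and mock root 1 and 3 for RCA (adjusted p = 0.069 to 0.13), both in limma. Each loss of PSAE-1 left a higher count of 1. Each loss of RCA left a lower count of 0, except without osmotic leaf array 2, where PSAN gained a call (adjusted p = 0.026 in limma) and the lower count was 1. Without mock root array 1 the lower count was 2. A part of leaf RNA in the root samples was not tested.

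Of the remaining lists, 11 cell cycle and histone genes gave 1 lower response in roots, the drought-induced linker histone HIS1-3 at -2.18 ± 0.68 (SE; limma adjusted p = 0.036), which rose in leaves by 1.64. That call ended without osmotic root array 1 or 3, mock root array 2 or 3, osmotic leaf array 3 or mock leaf array 1 or 3 (adjusted p = 0.064 to 0.1 in limma), and without osmotic leaf array 1 the list had 1 higher response. Of 8 aldehyde dehydrogenases, 1 was higher in roots, ALDH3F1 at 0.87, whose call ended without 8 of the 12 arrays (adjusted p = 0.054 to 0.1 in limma). The 2 lower members were ALDH6B2 (above) and ALDH10A8 at -0.71 ± 0.17 (SE; limma adjusted p = 0.0069). ALDH7B4, a detoxifying member, rose by 2.17 in roots and 2.06 in leaves, and its organ difference of 0.11 ± 0.25 (SE; limma adjusted p = 0.83) was not called. Among 4 genes listed under flavonoid synthesis, CHIL, a helper of chalcone isomerisation, had an organ difference of 1.06 ± 0.24 (SE; limma adjusted p = 0.005). UGT80B1, which is also on the glycosyltransferase list, had one of -0.71. The call of UGT80B1 ended without mock root array 1 or mock leaf array 2 (adjusted p = 0.051 and 0.053 in limma). DFR, the dihydroflavonol reductase, was not called (-0.48).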

How the data were processed

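Per the labels' protocols, total RNA from leaves and roots was biotin-labelled and hybridised to Affymetrix ATH1 arrays after the manufacturer's manual. The deposited table holds log2 expression values per probe set, which the authors made. No source used here says how the probes were summarised and normalised, and the values' range points to base 2. Their number, 3 arrays a group, limits the precision, and p-values measure the spread between these arrays.

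From 22810 probe sets, 64 controls were left out. A model of 6 group means over the 18 arrays was estimated by limma (version 3.58.1, R 4.3.3, eBayes with a mean-variance trend). The contrasts were the root response, the leaf response and their difference, with Benjamini-Hochberg adjustment over 22746 probe sets and a threshold of 0.05. For a single probe set, 3 arrays against 3 cannot go below 0.1 in a two-sided exact permutation test. Figures were drawn with matplotlib 3.10.9. The fit was tested on simulated data.

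Genes were named from the platform annotation (13513 probe sets with 1 gene, 503 with several, 8730 not listed), and symbols from the RefSeq gene table, which matched 13436. Of genes with a called organ difference of at least 1, the 4 largest in each of 6 kinds were named among those above the median of all values in both organs, the 4 most positive and 4 most negative among those near background in an organ, and from each list with at least 3 measured genes up to 4 called and 2 other members. The members and lists were chosen with earlier results of these data known, so no p over a list is given. Deviations of same-numbered arrays from their group means correlated at -0.289 to 0.238, with 3 of 18 over 0.1. Arrays of unlike number were not compared in this way, so shared deviation was not tested. The replicate numbers were not treated as pairs, except in the replicate block among the alternatives. Alternatives covered scaling, filter, array weights, the arrays fitted, the replicate block and leaving out each array. Promoter sequences were not analysed here.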

Additional observations from a re-analysis of the deposited data

Results flagged for a closer look

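The organ difference is itself a test of whether the response to mannitol differed between roots and leaves, and it was past the threshold at 3513 probe sets in limma. Called responses went in opposite directions at 211 of them, with 96 rising in roots and falling in leaves and 115 falling in roots and rising in leaves. Among the named genes, a rise in roots with a fall in leaves was called for SWEET2 (organ difference 2.91), UGT78D1 (2.91), MSRB6 (2.38), AT3G48460 (2.38), AT2G44940 (2.34), XTH19 (2.01) and SWEET1 (1.44). A fall in roots with a rise in leaves was called for AT1G49000 (-2.94), AT1G12030 (-2.91), AT1G14260 (-2.86), AT1G10340 (-2.50), XERICO (-1.55) and ALDH6B2 (-0.96). Of these 13 genes, SWEET2, MSRB6, AT1G49000 and XERICO kept the call of both responses without any 1 array. The other 9 lost the call in leaves, and SWEET1 also in roots, without at least 1 array.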

How the results depend on the processing

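The count of 3513 organ differences ran from 2655 without mock leaf array 2 to 3718 without osmotic leaf array 1, and from 3180 with dim probe sets left out (13788 tested) to 4758 with array weights. Root responses ran from 4247 to 5704 and leaf responses from 3048 to 5248 with an array left out. With the replicate block, 3485 organ differences were called, 3309 of them shared and all with the same sign, and root and leaf responses numbered 5505 and 4635. The block moved no count of a kind by over 1.5 times. Among named genes it ended the organ difference calls of rps16, atpF and MAMI and the root call of ATG8D, and added calls for ZIP9 (organ difference), AT2G41190 and WRKY22 (roots) and GSTU27 and PUB23 (leaves).

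Array weights gave 205 rises in roots with falls in leaves, 180 falls in roots with rises in leaves, 61 larger rises in leaves, 64 larger falls in roots and 68 larger falls in leaves. Median centring gave 10 larger falls in leaves. Without 1 array, rises in roots with falls in leaves ran from 65 to 106, the converse from 71 to 140, rises in leaves only from 257 to 562, falls in leaves only from 483 to 965, larger rises in roots from 86 to 161 and in leaves from 15 to 54, and larger falls in roots from 23 to 43 and in leaves from 6 to 42. The cause was not tested. Of 99 named genes with a called organ difference, 78 kept the call under every alternative that tested them, 21 did not, and 0 values turned sign past the threshold. Array signal limits falls near background. Setting other probe sets of a gene in place of the main one gave no value, since no named gene had another.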
